A study of Mus musculus with 8 samples.

Results

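The genes described here are those of polyamine synthesis and its regulators, read on every array probe that carries one of their symbols. Of the 8 genes on the list, 7 were matched to probes, out of 16448 named genes on the array. These 7 genes had 9 probes: 2 for Srm, 2 for Amd1, and 1 each for Sms, Oaz1, Oaz2, Azin1 and Sat1. The platform annotation named 7 of the 9 probes, and the 2 Amd1 probes were named through their RefSeq accession. Odc1 was not analysed here.

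The arrays were Illumina mouse bead arrays, 1 sample each. The 4 Astrocyte arrays held RNA of astrocytes obtained from NS5 cells by taking away the growth factors and giving 5% fetal calf serum (FCS) for 3 days. The 4 NS5 arrays held RNA of NS5, a mouse neural stem cell line kept dividing in growth factor medium. Both groups therefore come from 1 cell line, the label protocol calls the 4 samples of each group biological replicates, and growth factor withdrawal, serum and the change of cell state cannot be told apart.

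Polyamines are small, positively charged molecules that bind nucleic acids and are needed for growth and translation. Ornithine decarboxylase, encoded by Odc1, makes putrescine from ornithine, and Amd1 encodes the decarboxylase that turns S-adenosylmethionine into the aminopropyl donor. Spermidine synthase (Srm) and spermine synthase (Sms) add aminopropyl groups in turn. The antizymes Oaz1 and Oaz2 bind ornithine decarboxylase, deliver it to the proteasome without ubiquitin and also restrain polyamine uptake, and the antizyme inhibitor Azin1 binds antizyme in its place. Sat1 encodes the acetyltransferase that starts polyamine breakdown and export. Antizyme synthesis depends on a ribosomal frameshift and much of this pathway is set at the level of protein, which an mRNA array does not measure.

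Each array held 24613 probes, of which 46.0% to 47.9% lay above an estimated background limit of 35.4 to 39.8 units. Signals below are quantile-normalized intensities in scanner units, and a fold change is the Astrocyte minus NS5 difference of log2(signal + 99.01). The added constant makes the fold changes of dim probes smaller than the ratios of their signals. Of 9 astrocyte markers with a probe, 7 of the 8 genes tested were called higher and 0 lower, and their summed deposited intensity was 62983 to 77002 in astrocytes and 16860 to 23171 in NS5 cells. Gfap, the defining filament gene, had 2320 ± 944 in astrocytes and -11.5 ± 6.01 in NS5 cells, where it was above background on 0 of 4 arrays (SD, n = 4 each). Of neural stem cell markers, 4 of 6 tested genes (Sox9, Vim, Sox2 and Prom1) were higher and 1 lower, beside 30.1% and 30.4% of all genes. The lower one was Nes, a defining marker, with 1441 ± 36.3 in astrocytes and 2299 ± 395 in NS5 cells (SD, n = 4 each). Its log2 fold change was -0.63. All 8 tested cell division genes were lower, with summed intensities of 775 to 876 in astrocytes and 21346 to 30030 in NS5 cells. Of these genes, Gfap, Aqp4, Prom1, Ccna2 and Ccnb1 were within background on every array of 1 group. They were kept for the test only through the group where they are high, so they had to differ. Without them, 5 of 6 astrocyte genes were higher and 0 lower. Of 5 neural stem cell genes left, 3 were higher and 1 lower, and all 6 cell division genes left were lower. Markers of the oligodendrocyte lineage summed to 13468 to 18002 in astrocytes and 43951 to 53624 in NS5 cells, mostly Olig1. Those of neurons summed to 427 to 731 in astrocytes and 509 to 611 in NS5 cells. Of 4 tested neuron genes, Gap43, within background on every NS5 array, was at least 1.84-fold higher. Gap43 also passed the filter only through the group where it is high, so it had to differ. Without Gap43, 0 of 3 neuron genes were higher, 1 was lower and 2 were not called. The lower gene was Map2, by both tested probes (log2 fold changes of -0.96 and -0.78). The 6 microglia and macrophage markers with a probe stayed within background throughout. So did 4 of 6 fibroblast markers, Col1a1 among them, and 4 of 5 endothelial markers, Pecam1 among them. Pdgfrb of fibroblasts and Cldn5 of endothelium were above background on all 8 arrays and were not called. Dcn, a fibroblast proteoglycan gene, was above background on 3 of 4 Astrocyte arrays and 0 of 4 NS5 arrays by each of 2 of its probes, of which the 1 tested was not called. The part of these differences in the results below was not tested, and in such bulk samples fewer cells of a type and less RNA per cell cannot be told apart.

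Of the 9 probes, 8 passed the filter on dim probes, and that of Azin1 did not. With limma, 4 probes (Srm by both, Sms and Oaz1) were called lower, 2 (Oaz2 and Sat1) were called higher, and the 2 Amd1 probes were not called. Calls were made at an adjusted p under 0.05, and of all 12306 probes in the fit 58.8% passed, 28.2% as higher and 30.6% as lower. The 2 groups did not overlap for 6 of the 8 member probes, against 54.3% of all probes. A change of at least 2-fold was called for 5 of the 8, against 17.6% of all probes. The median log2 fold change of the 8 was -0.31, beside -0.03 for all probes tested. Srm and Amd1 enter these counts and this median with 2 probes each. By the brightest probe of each gene, 5 of 6 genes were called, against 60.5% of all genes.

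**Figure D1:**
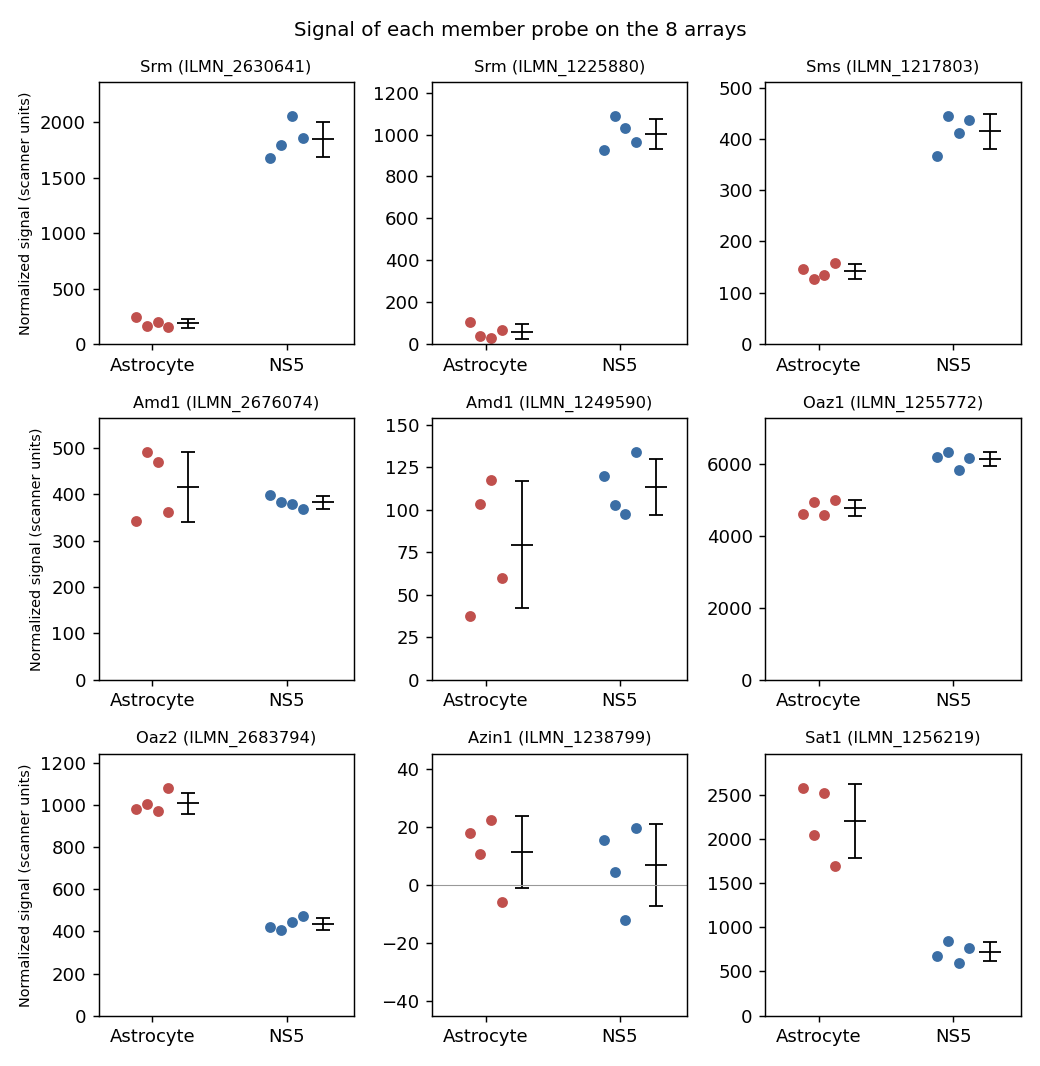
Normalized signal in scanner units of the 9 member probes, 1 panel each, on 4 Astrocyte arrays (red, left) and 4 NS5 arrays (blue, right), with the mean and SD as a black bar beside the points. Both Srm probes, Sms and Oaz1 lie lower on all 4 Astrocyte arrays, Oaz2 and Sat1 lie higher on all 4, Amd1 overlaps by both probes, and Azin1 lies around 0 in both groups.

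Srm, the enzyme that makes spermidine, had the largest change of the members. Its brighter probe (ILMN_2630641) had signals of 242, 163, 199 and 149.8 on the Astrocyte arrays, against 1681, 1798, 2052.5 and 1854 on the NS5 arrays. Every Astrocyte array lay far below every NS5 array. The means were 188 ± 41.4 in astrocytes and 1846 ± 155 in NS5 cells (SD, n = 4 each), a ratio of the means of 9.80 in favour of NS5. The log2 fold change was -2.77 ± 0.10 (SE, limma adjusted p = 1.68e-10), and 0.967% of all probes tested had a lower one.

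The dimmer Srm probe (ILMN_1225880) gave signals of 104, 36.1, 30.5 and 67.9 in astrocytes, against 925, 1086, 1033 and 962 in NS5 cells. The groups were again apart, but 2 of the 4 Astrocyte arrays were not above background. The log2 fold change of -2.82 ± 0.13 (SE, limma adjusted p = 9.38e-10) was close to that of the other probe. With signals under 16 set to 16 in place of the added constant, the log2 fold change was -4.25 by this probe and -3.32 by the brighter one.

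Sms, which turns spermidine into spermine, was also lower. Its probe (ILMN_1217803) had 146, 126, 135 and 158 on the Astrocyte arrays, against 367, 444, 412 and 436 on the NS5 arrays. The groups did not overlap, and the spread within each was small beside the gap. The means were 141 ± 13.9 in astrocytes and 415 ± 34.4 in NS5 cells (SD, n = 4 each), with a log2 fold change of -1.09 ± 0.08 (SE, limma adjusted p = 7.67e-08). Of all probes tested, 7.10% had a lower change.

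The 2 aminopropyl transferases did not fall by equal amounts. The within-array log2 difference of Srm minus Sms was 0.48, 0.22, 0.35 and -0.05 on the Astrocyte arrays, against 1.93, 1.81, 2.07 and 1.87 on the NS5 arrays. It was lower on each Astrocyte array than on any NS5 array. The difference changed by -1.67 ± 0.13 (SE), with p = 0.0286 in a two-sided exact permutation test of the 70 splits and 0.0286 after adjustment over the 2 pairs compared. This is the smallest p that 4 against 4 arrays allow. A difference between probes shows unequal change and not which gene is more abundant.

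Amd1, which supplies the aminopropyl donor for both transferases, did not pass the test by either probe. The brighter probe (ILMN_2676074) had 343, 491, 469.7 and 361 in astrocytes, against 399, 383, 379.7 and 368 in NS5 cells. Astrocyte arrays 2 and 3 lay above every NS5 array and Astrocyte arrays 1 and 4 below every one, so that the groups overlapped and the astrocytes were more spread. The log2 fold change was 0.09, with a 95% confidence interval of -0.13 to 0.30 (limma adjusted p = 0.496).

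The dimmer Amd1 probe (ILMN_1249590) had 37.7, 104, 118 and 59.6 in astrocytes, against 120.1, 103, 97.8 and 134 in NS5 cells. The same Astrocyte arrays, 1 and 4, were the low ones, and the log2 fold change was -0.27, with an interval of -0.56 to 0.01 (limma adjusted p = 0.0958). Without Astrocyte array 3 this probe was called, at -0.37 (adjusted p = 0.0226). With the mean of both probes the change was -0.09 (adjusted p = 0.509), opposite in sign to the brighter probe alone. Amd2 is a close relative of Amd1 in the mouse genome, and how far the probes tell them apart was not tested.

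**Figure D2:**
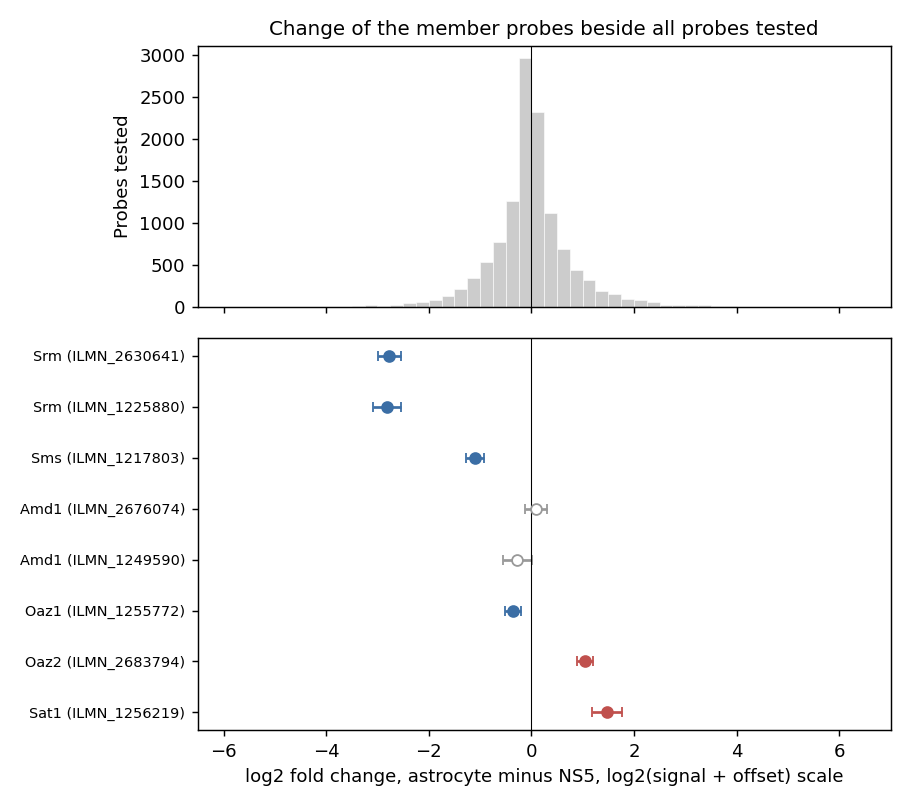
Lower panel, log2 fold change (Astrocyte minus NS5) of the 8 member probes that passed the filter, with 95% confidence intervals; blue, called lower, red, called higher, open grey, not called. Upper panel, number of all 12306 tested probes by log2 fold change on the same axis: the Srm probes lie in the far lower tail, Sms, Oaz2 and Sat1 in the shoulders, and Oaz1 and Amd1 in the central peak.

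The 2 antizyme genes changed in opposite directions. Oaz1, the broadly expressed antizyme, had 4593, 4939.6, 4571 and 4994 on the Astrocyte arrays, against 6194, 6312, 5833 and 6168 on the NS5 arrays (probe ILMN_1255772). The groups did not overlap, though the gap was narrow beside the level. The means were 4774 ± 223 in astrocytes and 6127 ± 206 in NS5 cells (SD, n = 4 each), with a log2 fold change of -0.35 ± 0.07 (SE, limma adjusted p = 7.37e-04). Of all probes tested, 24.7% had a lower change.

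Oaz2, a second antizyme gene conserved among vertebrates, went up. Its probe (ILMN_2683794) had 980.1, 1006, 972 and 1081 on the Astrocyte arrays, against 423, 408, 445 and 472 on the NS5 arrays. All 4 Astrocyte arrays were above all 4 NS5 arrays, with little spread in either group. The ratio of the means was 2.31 in favour of astrocytes and the log2 fold change 1.05 ± 0.07 (SE, limma adjusted p = 5.73e-08). A higher change was seen for 8.61% of all probes.

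The within-array log2 difference of Oaz1 minus Oaz2 was 2.12, 2.19, 2.12 and 2.11 on the Astrocyte arrays, against 3.59, 3.66, 3.45 and 3.46 on the NS5 arrays. It was lower on every Astrocyte array and changed by -1.40 ± 0.06 (SE), with p = 0.0286 in the two-sided exact permutation test and 0.0286 after adjustment over the 2 pairs. Since Oaz1 was lower and Oaz2 higher on every Astrocyte array, the difference had to separate the groups. The p therefore adds nothing to the changes of the 2 genes given above. Of the 5 pairs planned, the other 3 involved Odc1 and were not run.

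**Figure D3:**
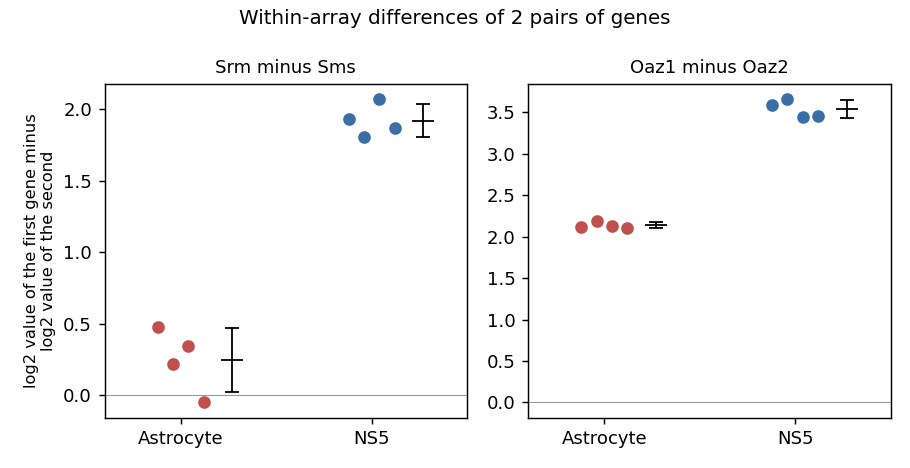
Within-array difference of log2 values for Srm minus Sms (left panel) and Oaz1 minus Oaz2 (right panel) on 4 Astrocyte arrays (red) and 4 NS5 arrays (blue), with mean and SD as black bars. In both panels the 4 Astrocyte points lie below the 4 NS5 points, with differences of the means of -1.67 and -1.40.

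Azin1, the antizyme inhibitor, could not be measured by its probe (ILMN_1238799). Its signals were 17.8, 10.6, 22.3 and -5.92 in astrocytes and 15.3, 4.43, -12.2 and 19.5 in NS5 cells, all within background. No fold change is given, since both groups have only a bound. The other antizyme inhibitor, Azin2, is given with the pathway genes below.

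Sat1, the acetyltransferase that starts the breakdown of spermidine and spermine, was higher in astrocytes. Its probe (ILMN_1256219) had 2575, 2047, 2514 and 1689 on the Astrocyte arrays, against 681, 844, 598 and 769 on the NS5 arrays. Every Astrocyte array lay above every NS5 array, and the astrocytes were more spread. The means were 2206 ± 418 in astrocytes and 723 ± 107 in NS5 cells (SD, n = 4 each), a ratio of 3.05. The log2 fold change was 1.48 ± 0.13 (SE, limma adjusted p = 6.07e-07), and 5.02% of all probes had a higher one.

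The genes whose profile over the 8 arrays was most like that of Sat1 were Adipor1 (Pearson r = 0.997), Cebpb (0.994), Rps6ka5 (0.994), Spg21 (0.993) and Spsb1 (0.991). Likeness was computed over 10376 other genes, each by its brightest probe and with unnamed probes counted singly, and 1630 of them had an r over 0.9, since the difference between the 2 groups carries most of it. Adipor1, a receptor of adiponectin, had a log2 fold change of 0.55, Cebpb, a transcription factor of stress and cytokine responses, 2.14, and Rps6ka5, a kinase downstream of MAP kinases, 1.10. All 5 had their lowest astrocyte signal on the same array as Sat1, a property for which the measure chose them.

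The sequences around the start are shown for 4 of the 5 genes called by the test, because the data bear on their mRNA, with the letters of 3 motifs in capitals. RefSeq (GRCm38.p6) gave 7 promoter windows, each 250 bases before to 50 after a start, for 6 of the listed genes: Odc1, Sms with 2 starts, Amd1, Oaz1, Oaz2 and Sat1. The motifs, searched on both strands, were CACGTG, the E-box that MYC and MAX bind, TATAAA, the TATA box, and GGGCGG, the GC box that Sp1 binds. Copies of GGGCGG overlap each other in Oaz2 and in 1 Sms window, and no motif overlaps another motif. Of all 32851 promoter windows, 7.15% held CACGTG, 13.6% TATAAA and 35.7% GGGCGG. Each window is printed 5′ to 3′ on the strand of its gene. Srm, the other gene called, is not shown. The genes called higher come first.
Sat1, chrX:155216400-155216699, minus strand: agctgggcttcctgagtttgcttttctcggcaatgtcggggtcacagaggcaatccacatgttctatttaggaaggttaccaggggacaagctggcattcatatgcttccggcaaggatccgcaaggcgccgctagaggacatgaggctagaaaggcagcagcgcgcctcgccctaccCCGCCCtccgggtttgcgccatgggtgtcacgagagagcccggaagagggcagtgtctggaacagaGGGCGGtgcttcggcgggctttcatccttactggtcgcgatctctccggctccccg
Oaz2, chr9:65676298-65676597, plus strand: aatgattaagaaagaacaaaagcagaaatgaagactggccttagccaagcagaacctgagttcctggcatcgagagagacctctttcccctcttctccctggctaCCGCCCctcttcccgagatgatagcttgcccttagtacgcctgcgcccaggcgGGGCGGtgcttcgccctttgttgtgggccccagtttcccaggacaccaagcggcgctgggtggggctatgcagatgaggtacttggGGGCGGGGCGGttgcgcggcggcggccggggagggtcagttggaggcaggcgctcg
Sms, upstream start, chrX:157492238-157492537, minus strand: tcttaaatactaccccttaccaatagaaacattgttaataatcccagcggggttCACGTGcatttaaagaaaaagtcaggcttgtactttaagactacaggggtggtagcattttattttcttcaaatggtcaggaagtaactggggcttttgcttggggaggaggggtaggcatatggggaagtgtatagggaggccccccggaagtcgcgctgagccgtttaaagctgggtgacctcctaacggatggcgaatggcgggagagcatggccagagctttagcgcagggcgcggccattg
Sms, downstream start, chrX:157491319-157491618, minus strand: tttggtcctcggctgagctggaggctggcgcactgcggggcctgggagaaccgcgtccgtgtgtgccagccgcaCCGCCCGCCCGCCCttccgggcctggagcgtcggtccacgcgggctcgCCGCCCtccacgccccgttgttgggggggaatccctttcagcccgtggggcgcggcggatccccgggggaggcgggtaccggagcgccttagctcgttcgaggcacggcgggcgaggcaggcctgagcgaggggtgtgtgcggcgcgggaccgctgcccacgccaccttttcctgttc
Oaz1, chr10:80826406-80826705, plus strand: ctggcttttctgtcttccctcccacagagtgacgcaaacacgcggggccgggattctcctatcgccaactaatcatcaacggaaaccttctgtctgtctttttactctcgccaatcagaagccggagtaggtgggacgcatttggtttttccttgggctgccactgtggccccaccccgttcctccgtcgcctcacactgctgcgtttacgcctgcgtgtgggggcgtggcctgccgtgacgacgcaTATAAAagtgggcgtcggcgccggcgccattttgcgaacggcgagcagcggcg

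GGGCGG was found 2 times in the Sat1 window, 4 times in that of Oaz2, 4 times at the downstream Sms start and 0 times at the upstream one. CACGTG was found once, at the upstream Sms start. TATAAA was found in the Oaz1 window alone of the 7. It begins there at position -3 and runs across the annotated start, and whether it acts as a TATA box was not tested. The Amd1 window held 1 GGGCGG and the Odc1 window 4, and neither held CACGTG or TATAAA. Bases outside the windows, introns included, were not searched, so copies of a motif elsewhere in these genes would be missed. These counts describe letters in the windows and were not tested against the changes in mRNA.

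The other genes of the pathway are given by list, each gene by its brightest probe. Over all 9209 named genes tested this way, 60.5% were called, 30.1% as higher and 30.4% as lower, and the median log2 fold change was -0.02. The lists hold few tested genes, and nothing particular to a list is read from its share of calls.

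Genes that supply ornithine and arginine moved both ways. Of 13 listed, 12 had a probe and 5 were tested, of which 2 were higher, 1 lower and 2 not called, with a median log2 fold change of -0.03. Azin2, first described as an arginine decarboxylase and now as an antizyme inhibitor, had 855, 579.8, 781 and 661 in astrocytes, against -1.65, 4.90, -20.6 and 10.0 in NS5 cells. It was above background on the 4 Astrocyte arrays alone and at least 5.89-fold higher. It passed the filter only through the group where it is high, as did Slc12a8 and Myc below, so these 3 genes had to differ and their calls support nothing about their lists. Without Azin2, 1 of 4 tested genes was higher and 1 lower. Slc7a3, a transporter of cationic amino acids, had a log2 fold change of 0.78, and Got2, the mitochondrial aspartate aminotransferase, -0.25. A count of 6 listed genes, both arginases among them, was not above background on any array.

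Genes of the methionine cycle and of salvage of the by-product of both transferases moved both ways. Of 12 listed, 8 had a probe and 5 were tested, with 2 higher, 2 lower and 1 not called and a median log2 fold change of 0.21. Mtap, the phosphorylase that removes the methylthioadenosine left by spermidine and spermine synthesis, had 98.1, 171, 119 and 217 in astrocytes, against 799, 1083, 1003 and 955 in NS5 cells. The groups were far apart, with a log2 fold change of -2.10 ± 0.14 (SE, limma adjusted p = 3.38e-08). Enoph1, a later enzyme of that salvage, fell by 0.40 on the log2 scale, while Apip, which acts just before it, had 0.32 ± 0.10 by 1 probe and 0.17 by another that was not called. Mat2b, the regulatory subunit of S-adenosylmethionine synthetase, had 0.70 by 1 probe and 0.06, not called, by another. Mat2a, its catalytic partner, was not called by any of its 3 probes, at 0.13 to 0.21. Ahcy and Mri1 were not above background on any array.

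Among 7 listed genes of back-conversion and catabolism, 5 were tested, with 2 higher, 1 lower and 2 not called and a median log2 fold change of 0.05. Sat2, a relative of Sat1, had 423, 486, 448 and 533 in astrocytes, against 168, 215, 147 and 177 in NS5 cells, a log2 fold change of 1.05 ± 0.09 (SE, limma adjusted p = 4.98e-07), and 0.90 by its other probe. It moved the same way as Sat1, with no overlap between the groups. Aldh1a1, an aldehyde dehydrogenase, had 2.69 ± 0.10. Smox, spermine oxidase, which returns spermine to spermidine, was lower by all 3 probes tested, at -0.28, -0.50 and -0.63. Paox, the oxidase of acetylated polyamines, was not called by either tested probe, at 0.05 and 0.20. Aoc3 and Satl1 were not above background on any array.

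Spermidine also donates the group that turns a lysine of eIF5A, a translation factor, into hypusine. Of the 3 tested genes of this step, 2 were lower and 1 not called, with a median log2 fold change of -0.99. Eif5a (probe ILMN_2686044) had 1251, 1139.5, 1305 and 1322 in astrocytes, against 5117, 4116, 4575 and 4265 in NS5 cells. The groups were far apart, with a log2 fold change of -1.77 ± 0.09 (SE, limma adjusted p = 1.90e-09), and -1.84 by the other probe. Dhps, which starts hypusine synthesis, fell by 0.99 on the log2 scale. Dohh, which completes it, had -0.22 and was not called (adjusted p = 0.0624). Eif5a2 did not pass the filter.

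Of 12 listed genes linked to polyamine transport, 10 had a probe and 6 were tested, with 4 higher, 0 lower and 2 not called and a median log2 fold change of 1.06, beside 60.5% of all genes called. Without Slc12a8, 3 of 5 were higher, with a median of 0.55. Slc3a2, a subunit of amino acid exchangers that has also been tied to polyamine export, had 1613, 1914, 1374 and 1868 in astrocytes, against 260.1, 213, 249 and 268 in NS5 cells, a log2 fold change of 2.36 ± 0.10 (SE, limma adjusted p = 7.46e-10). Slc12a8, a membrane transporter, was above background on the 4 Astrocyte arrays alone and at least 5.98-fold higher. Atp13a4 and Atp13a2, P-type ATPases, had 1.57 ± 0.08 and 0.55 ± 0.07. Gpc1, a glypican, and Slc47a1 had 0.11 and -0.00, and Cav1, a caveolin, was within background on all 8 arrays.

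MYC drives transcription of Odc1 and of other genes of growth, and MXD proteins oppose it. Of 4 tested genes of this network, 2 were higher, 1 lower and 1 not called, with a median log2 fold change of 0.42. Myc had 26.4, 18.0, 35.6 and 11.2 in astrocytes, against 169, 173, 243 and 228 in NS5 cells. None of the Astrocyte arrays showed it above background, all 4 NS5 arrays did, and it was at least 2.23-fold lower. Without Myc, 2 of 3 tested genes were higher and 0 lower. A dimmer Myc probe was dark throughout. Mycl, a relative of Myc, had a log2 fold change of 1.83 ± 0.17, and Mxi1, an antagonist of MYC, 0.88 ± 0.12 by 1 probe and 0.15, not called, by another. Mxd1 and Mycn were not above background on any array.

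Ornithine decarboxylase is degraded by the proteasome, and its translation is sensitive to the cap-binding machinery. Of 10 listed genes, 6 were tested, with 0 higher, 5 lower and 1 not called and a median log2 fold change of -0.48, beside 30.4% of all genes called lower. Eif4ebp1, which restrains the cap-binding factor eIF4E, had -1.18 ± 0.09. The proteasome subunit genes Psmd14, Psmc2, Psmc4 and Psmd4 had -0.58, -0.48, -0.48 and -0.25. Psmc1, with 248 ± 181 in astrocytes and 187 ± 243 in NS5 cells, was not called. Eif4e and Nqo1 were not above background on any array.

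**Figure D4:**
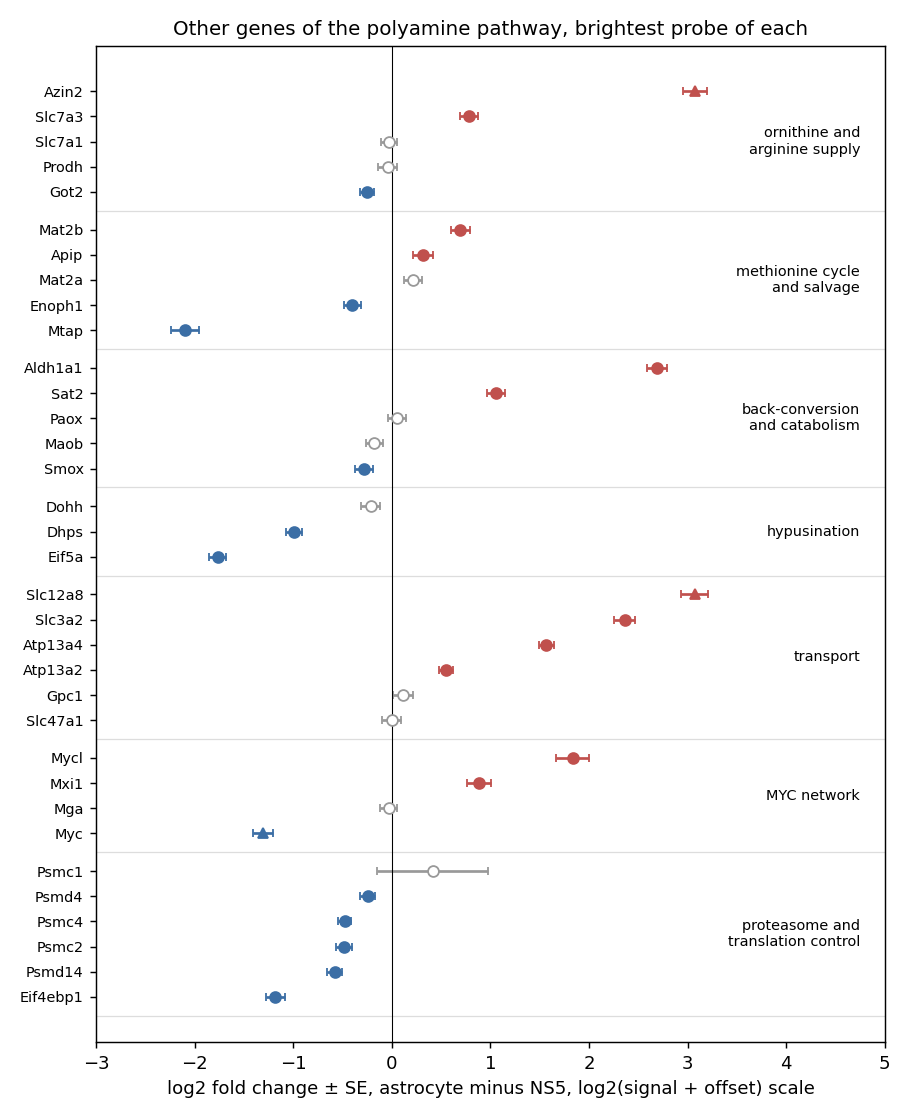
Log2 fold change (Astrocyte minus NS5) with SE of the tested genes of 7 pathway lists, each by its brightest probe; blue, called lower, red, called higher, open grey, not called. Triangles mark Azin2, Slc12a8 and Myc, which stayed within background on every array of 1 group, so that their points are no measure of the fold. Points of the transport list lie at or right of 0, while those of hypusination lie left of 0.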

How the data were processed

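The authors deposited a table of linear probe intensities for 8 arrays, with negative values and no detection p, so a background had been subtracted; the software is not given in the sources used here. They also deposited log2 values, which match the intensities floored at 10, log2 transformed and quantile normalized, by their ranks and floor, and were not centred (column median 4.93); these log2 values served as an alternative. Intensities were raised by 99.01, so that the lowest was 16, log2 transformed and quantile normalized. The brighter probes, those whose mean log2 value exceeded the median over probes, were kept (12306 of 24613) and fitted with limma 3.58.1 in R 4.3.3 (lmFit, eBayes, group as the only term), with Benjamini-Hochberg adjustment over all of them and calls under 0.05. The fit was tested on simulated data.

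The platform annotation named 20984 probes and RefSeq accessions 686 more. The background limit of an array was 1.64 times the root mean square of its negative signals. A gene dark on all arrays of 1 group has a bound: the mean log2 of the other group against, per array, the higher of the lowest value above the limit and its own. Pairs were compared by exact permutation (scipy 1.17.1). All member probes are given; from each list every called gene is named by its brightest probe, with the members dark on all arrays where there are 5 or fewer (for transport, Cav1 alone is named, and 1 gene is not reported here); the 5 genes most like Sat1 are named. The likeness to Odc1 was not run. Members and lists were chosen with earlier results of these data known. P-values measure the spread between replicate cultures of 1 cell line. No slide or scan date was used here, and the number of arrays limits the precision.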

Additional observations from a re-analysis of the deposited data

Results flagged for a closer look

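Within each group of 4 arrays, the gap of the highest or lowest array to its neighbour was compared with the range of the group, for the member probes, the called pathway genes and the genes most like Sat1. Of 76 such groups, 3 stood out, none of them among the 18 of the member probes, and chance alone flags about 5% of groups. Aldh1a1 had 666 on NS5 array 2, against 543 to 554 on the other NS5 arrays. Dhps had 575 on the same array, against 487 to 493. Psmc4 had 7184 on NS5 array 4, against 7851 to 7981.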

How the results depend on the processing

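Over 18 alternatives the number of probes called ran from 5831 (mean of all probes of a gene, 9695 tested) to 7603 (no filter, 24613 tested), against 7235. Leaving out 1 array at a time gave 6841 to 7283. Each of both Srm probes, Sms, Oaz1, Oaz2 and Sat1 kept its direction and its call under every alternative run for it, with the highest adjusted p at 0.00492, for Oaz1. The log2 fold change ran from -3.32 to -2.70 for the brighter Srm probe, from -4.25 to -2.74 for the dimmer one, from -1.55 to -1.06 for Sms, from -0.50 to -0.33 for Oaz1, from 0.97 to 1.21 for Oaz2 and from 1.37 to 1.60 for Sat1. The lowest values of the Srm probes and Sms came with the authors' value table and with signals under 16 set to 16, where no constant is added. The brighter Amd1 probe (0.09) turned to -0.093 with the mean of both probes, since the other probe is then averaged in, and the dimmer one was called without Astrocyte array 3 alone. The count of member probes called was 6, or 7 without that array, and 5 of 6 genes with 1 value per gene.

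The replicate numbers of the titles gave no clear pairing of the arrays. Same-numbered arrays correlated in their deviations at -0.06, 0.04, 0.16 and 0.08, against -0.13 to 0.09 for arrays of unlike number. Not every array correlated best with its own number, and whether the cultures were paired was not tested. With the replicate block 7170 probes were called, and no call of a member probe changed. The differences of Srm minus Sms and of Oaz1 minus Oaz2 ran from -1.76 to -1.58 and from -1.57 to -1.35 over the alternatives; taken as a replicate block of 4 pairs their exact p cannot fall below 0.125. The catabolism list had 6 called probes and 3 called genes by the brightest probe, because Smox and Sat2 have several probes.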

Other observations

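Mxd3, a gene of the MXD family that opposes MYC, was named here after its values were seen. It did not pass the filter on dim probes. Its signal was -12.8 ± 8.18 in astrocytes, where 0 of 4 arrays were above background, and 95.2 ± 18.4 in NS5 cells, where 4 of 4 were (SD, n = 4 each). It was at least 1.43-fold lower in astrocytes, with no test. The dimmer Azin2 probe (ILMN_2608997) was above background on 3 of 4 Astrocyte arrays and 0 of 4 NS5 arrays, at 48.9 ± 20.1 in astrocytes and 12.7 ± 6.56 in NS5 cells, the same direction as the brighter one.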
